A study of Mus musculus with 5 samples.

Results

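Histone acetylation at 9 genes of the BCL2 family was examined in memory-type CD8+ T (TM) cells of WT and TPdh-/- mice, out of 21938 protein-coding genes in the annotation. The genes were taken by name, as the listed family members other than Bcl2 itself, and the list was chosen with earlier results of these data known. They are the pro-survival genes Mcl1 and Bcl2l1, the effectors Bax and Bak1, and the BH3-only genes Bcl2l11, Bid, Bad, Bbc3 and Pmaip1, so that 2 genes are pro-survival and 7 are pro-death. For each gene, the peaks within the gene body or 10 kb of it were collected from the peak list of each of 5 ChIPseq libraries (WT, n = 2, and TPdh-/-, n = 3). Chromatin was precipitated with an antibody against acetylated histones, and the sample labels name lysine 18. TPdh-/- mice came from a cross of B6.129P2-Pdha1tm1ptl/J mice with B6.Cg-Tg(Cd4-cre)1Cwi/BfluJ mice, in which Cre driven by Cd4 removes Pdha1, a subunit of the pyruvate dehydrogenase complex, in T cells of both the CD4 and CD8 lineages. Per the study's methods, mice were young adults of both sexes, and the TM cells of both groups were OT-I cells activated with OVA peptide and then cultured with IL-15. The labels of the libraries give the genotype as wildtype or mutant and the cells as CD8 of memory type. They do not say whether the libraries of a group came from separate animals or cultures, so the p-values below measure the spread between these libraries, which may be technical.

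Acetylated histone tails mark active promoters and enhancers, and the acetyl group is drawn from acetyl-CoA, which the pyruvate dehydrogenase complex makes from pyruvate. The BCL2 family decides whether the outer mitochondrial membrane is permeabilised. MCL1 and BCL-XL, the product of Bcl2l1, hold the membrane intact by binding pro-death members. BAX and BAK1 form the pores through which cytochrome c escapes, and the BH3-only proteins either activate these effectors or occupy the pro-survival members. In T cells, IL-15 is a survival cytokine that signals through STAT5, and the balance of MCL1 and BCL-XL against BIM, the product of Bcl2l11, sets the life span of activated and memory cells.

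The sequences shown first are from under 3 of the peaks that carry the comparison of the groups. They are 300 bases each, read 5′ to 3′ on the strand of the gene from the part that all peaks of a site share, outside coding transcripts' exons, and come from the RefSeq copy of GRCm38. The first lies at the Mcl1 promoter (chr3:95658421-95658720, plus strand), from −367 to −68 bases relative to the gene start. The second lies in the first intron of Bak1 (chr17:27027930-27028229, minus strand), 780 to 1079 bases after its start. The last lies just past the 3′ end of Bad (chr19:6951906-6952205, plus strand). Capitals mark matches on either strand to STAT (TTCNNNGAA), ETS (CCGGAAG), FOXO (TGTTTAC), SP/KLF (GGGCGG) or NF-Y (CCAAT) motifs, and none of the matches overlap.
Mcl1 promoter: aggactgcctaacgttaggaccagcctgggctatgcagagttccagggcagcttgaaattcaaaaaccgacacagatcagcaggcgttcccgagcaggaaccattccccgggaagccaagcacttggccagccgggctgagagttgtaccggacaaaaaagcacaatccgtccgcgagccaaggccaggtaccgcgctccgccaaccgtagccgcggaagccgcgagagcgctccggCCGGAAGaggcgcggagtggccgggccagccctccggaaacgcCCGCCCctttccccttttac
Bak1 first intron: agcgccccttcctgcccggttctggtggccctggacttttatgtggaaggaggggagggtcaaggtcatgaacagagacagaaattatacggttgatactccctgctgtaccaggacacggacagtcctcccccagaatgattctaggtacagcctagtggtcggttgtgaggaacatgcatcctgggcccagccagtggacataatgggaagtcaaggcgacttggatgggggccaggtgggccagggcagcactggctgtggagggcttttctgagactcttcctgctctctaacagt
Bad 3′ end: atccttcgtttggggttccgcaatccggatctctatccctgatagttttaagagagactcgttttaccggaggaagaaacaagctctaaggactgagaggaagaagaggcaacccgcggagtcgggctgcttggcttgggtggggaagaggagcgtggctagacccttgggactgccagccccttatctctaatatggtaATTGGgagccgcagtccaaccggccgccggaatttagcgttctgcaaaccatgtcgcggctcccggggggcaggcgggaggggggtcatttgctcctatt

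The 3 sequences differed in composition. The Mcl1 promoter had a GC content of 63.3% and 27 CpG dinucleotides, 0.901 of the number its base content predicts, with 1 ETS match and 1 SP/KLF match on the opposite strand. The first intron of Bak1 had 6 CpG dinucleotides, 0.257 of the predicted number, and no match to any of the 5 motifs, also over the whole 532 bp shared by its peaks. The 3′ end of Bad had 18 CpG dinucleotides, 0.765 of the predicted number, and 1 NF-Y match. Over the whole part shared by their peaks, Mcl1 (1131 bp) held 1 ETS and 6 SP/KLF matches, and Bad (971 bp) held 1 STAT, 2 ETS, 4 SP/KLF and 2 NF-Y matches. An ETS match was held by 8.86% of 32851 promoters in the RefSeq table. It was held by 13.7% of the 3099 central windows, of 300 bases each, of regions with a peak in all 5 libraries. The whole shared parts of Mcl1 and Bad are longer than these windows, so their counts do not compare with the shares. The shares were 8.30% and 9.29% for STAT, which matched in none of the 3 printed sequences, 35.7% and 35.5% for SP/KLF, and 37.4% and 26.7% for NF-Y. FOXO, the factor family that activates Bcl2l11 and Bbc3 when survival signalling stops, had matches in 3.65% of promoters and 5.2% of shared regions. In the RefSeq promoter table, 8 of the 9 genes had an entry, with 14 promoters in all. FOXO matches were in promoters of 2 genes, Bcl2l11 and Bbc3, ETS matches in those of 3, SP/KLF matches in those of 6 and NF-Y matches in those of 3, while none held the STAT motif. Some genes had more than 1 promoter, so these counts of genes do not compare with the shares of promoters. A match is a description of the letters and does not show that a factor binds.

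The lists held 15962 and 8859 peaks in the WT libraries and 4920, 5419 and 9418 in TPdh-/- replicates 1, 2 and 3. No list gives a number of reads, which leaves the depth unknown, and the part that depth or signal over background has in the differences below was not tested. Each peak was also ranked within its own list as a percentile of its −log10 q, with 100 for the strongest peak and 0 where a gene had none. A longer list adds weaker peaks below a given peak and so raises its percentile. The percentile therefore does not remove the effect of list length, and some differences are also given below with all lists cut to the length of the shortest. The fold is the authors' enrichment of a peak over the background that MACS2 estimated, on a linear scale. The labelled cell type was checked on 8 T cell markers, of which 8 and 7 had a peak in the WT libraries and 2, 6 and 6 in the TPdh-/- libraries. Of all coding genes, 54% and 36.4% had a peak in WT and 23.2%, 24.7% and 39.2% in TPdh-/-. The 2 of 8 in TPdh-/- replicate 1 was thus near the share of all genes. By percentile, 4 of the 8 lay higher in both WT libraries without overlap and 0 in TPdh-/-, against 13.7% and 0.196% of coding genes. Those shares count the 43.9% of coding genes with no peak in any library, which could not separate, whereas each marker had a peak. Cd8b1 had a peak in all 5 libraries, whereas Cd8a had one in WT replicate 1 alone. Cd3d and Cd3g had the same percentile and fold in WT replicate 2 and in TPdh-/- replicate 2, so the markers are not independent counts. None of 4 non-blood markers had a peak in any library. Of 4 B cell markers, 3 and 1 had a peak in WT and 1, 1 and 2 in TPdh-/-. Cd79a had one in all 5 libraries, at the 80.0 and 62.1 percentiles in WT and 83.8, 60.0 and 81.9 in TPdh-/-, and Ms4a1 had none. Of 4 myeloid markers, 2 and 2 had a peak in WT and 2, 1 and 2 in TPdh-/-. Cd14 had one in all 5 libraries, at 96.6 and 89.2 in WT and 62.2, 92.0 and 92.0 in TPdh-/-, Itgam had one in 4, at up to 86.7, and Lyz2 and Csf1r had none. A marker was given any peak within 10 kb of it, whichever gene's start was nearest, so a peak may belong to a neighbour. The part of other cell types in the results below was not tested. With 2 libraries against 3, the exact permutation test has 10 arrangements and a smallest two-sided p of 0.2, so no difference between WT and TPdh-/- can pass 0.05 here.

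All 9 genes had a peak in at least 1 library, whereas 43.9% of coding genes had none in any. The 9 genes gave 62 peaks at 21 sites, with a fold between 1.46 and 3.69 and a width between 546 and 2414 bp. Of the sites, 10 were at promoters (within 1000 bp of an annotated start), 4 in introns, 6 downstream and 1 upstream. WT replicate 1 had a peak at all 21 sites, and 4 sites had a peak in that library alone. All 5 libraries shared 5 sites, at Bcl2l1, Bak1, Bad and Pmaip1 (with a pair of sites). In length the genes ran from 4389 to 51061 bp, with a median of 9813 bp against 17425 bp for coding genes.

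In the WT libraries, 9 and 5 of the 9 genes had a peak, where the share of all coding genes was 54% and 36.4%. In TPdh-/- replicates 1, 2 and 3, 5, 5 and 8 genes had one, against 23.2%, 24.7% and 39.2% of coding genes. The groups overlapped, since TPdh-/- replicate 3 had more of these genes than WT replicate 2. In all 5 libraries 4 genes had a peak, against 17.1% of coding genes, and none had a peak in both WT libraries and no TPdh-/- library, against 2.92%. By the percentile of the strongest peak, 3 genes (Mcl1, Bcl2l1 and Bak1) lay higher in both WT libraries than in any TPdh-/- library, where 13.7% of coding genes did, and 0 lay the other way, where 0.196% did. Those shares count the 43.9% of coding genes that had no peak in any library and could not separate. All 9 genes had a peak, so the shares do not show an excess among them. With all lists cut to the length of the shortest, Bcl2l1 alone of the 3 kept this separation (exact permutation p = 0.2), and the p was 1 for Mcl1 and 0.4 for Bak1. The plot of percentiles by gene and library shows these 3 genes beside 3 others, Bax, Bcl2l11 and Bid, with a peak only in the longest lists.

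**Figure D1:**
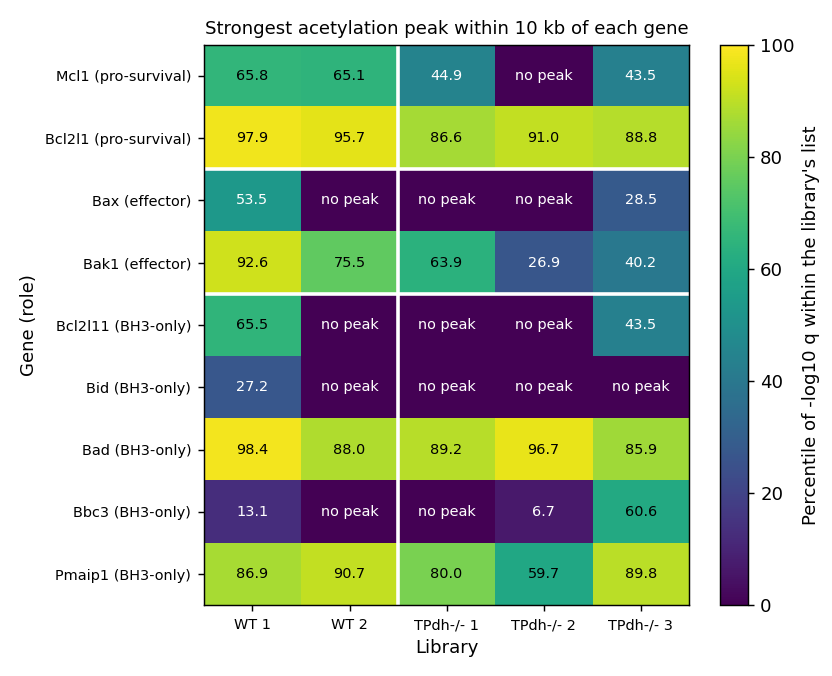
Percentile of the strongest peak (colour and printed value, 0 to 100 by −log10 q within the library's own list) for 9 BCL2 family genes (rows) in 2 WT and 3 TPdh-/- libraries (columns), with white lines between roles and groups. Bcl2l1 lies between 86.6 and 97.9 in every library, whereas Bid has a peak in WT 1 alone.

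Mcl1 (ENSMUSG00000038612.16, chromosome 3, 95658788 to 95663176, plus strand) encodes a short-lived survival protein that T cells need at nearly every stage. Its promoter, which includes the sequence shown above, carried its strongest peak. This peak lay at the 65.8 and 65.1 percentiles in WT replicates 1 and 2, at 44.9 and 43.5 in TPdh-/- replicates 1 and 3, and was not called in TPdh-/- replicate 2. Both WT libraries were therefore above all 3 TPdh-/- libraries. The WT mean was 65.5 ± 0.501 (SD, n = 2) and the TPdh-/- mean 29.5 ± 25.5 (SD, n = 3), a difference of 36.0 (exact permutation p = 0.2, two-sided). Without TPdh-/- replicate 2 the difference was 21.3, and with all lists cut to the length of the shortest it was 3.65. The fold at the promoter did not separate the libraries in which the peak was called, with 2.29 and 2.54 in WT and 2.53 and 2.21 in TPdh-/- replicates 1 and 3. Weaker sites flanked the gene at 3 places. The site centred 7.5 kb before the start had a peak in both WT libraries and TPdh-/- replicate 3, at the 25.3, 41.1 and 18.8 percentiles. A site 10.2 kb after the start, nearer to the start of Adamtsl4, was called in the same libraries at a fold of 1.46, 1.54 and 1.65. A site 15.4 kb after the start, also nearest to Adamtsl4, was called in WT replicate 1 alone, over 2314 bp. Peaks covered 4087 and 2752 bp of the Mcl1 window in WT and 1131, 0 and 4029 bp in TPdh-/- (exact permutation p = 0.4), with overlap between the groups.

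Bcl2l1 (ENSMUSG00000007659.18, chromosome 2, 152780668 to 152831728, minus strand) encodes BCL-XL and is the longest of the 9 genes. Its strongest peak was not at a promoter but in an intron, 42.1 kb after its start, where a peak was called in all 5 libraries. By rank this peak was number 340 of 15962 and 380 of 8859 in WT, and number 662 of 4920, 489 of 5419 and 1052 of 9418 in TPdh-/-. The percentiles were 97.9 and 95.7 in WT and 86.6, 91.0 and 88.8 in TPdh-/-, so every WT value lay above every TPdh-/- value. The means were 96.8 ± 1.53 (SD, n = 2) and 88.8 ± 2.22 (SD, n = 3), a difference of 8.0 (exact permutation p = 0.2). The fold at the same peak was 2.15 and 2.19 in WT and 2.2, 2.21 and 2.13 in TPdh-/-. These values overlapped, and the means were 2.17 ± 0.0291 (SD, n = 2) and 2.18 ± 0.0441 (SD, n = 3) with an exact permutation p of 1. The −log10 q was 15.7 and 9.24 in WT and 4.85, 6.43 and 7.67 in TPdh-/-, which did separate the groups. The median −log10 q of all peaks of a list was 3.99 and 3.16 in WT and 2.59, 2.81 and 3.41 in TPdh-/-, so that the lists themselves overlapped, with TPdh-/- replicate 3 above WT replicate 2, and the part of the list's level in the difference at Bcl2l1 was not tested. Its width was 2414, 2075, 2080, 2072 and 2240 bp in the same order of libraries. The nearest start of a coding gene to this intron site was that of Cox4i2, 33353 to 33503 bp away.

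The promoter of Bcl2l1, with a peak centred 0.9 kb after the start, was called in 4 libraries. Its percentiles were 88.8 and 90.3 in WT, 56.6 and 67.2 in TPdh-/- replicates 2 and 3, and no peak was called in TPdh-/- replicate 1. Both WT libraries were again above the TPdh-/- libraries, and the fold was 2.82 and 3.08 against 2.72 and 2.75. When only peaks nearest to the gene's own start were counted, the percentile of Bcl2l1 differed by 48.3 between the groups instead of 8.0, because the intron peak was then left out. A site downstream of the gene, 55.5 kb after its start, was called in both WT libraries and in no TPdh-/- library, at the 30.8 and 9.84 percentiles. A further intron site, 27.7 kb after the start, was called in WT replicate 1 alone. Peaks covered 5711 and 3463 bp of the Bcl2l1 window in WT and 2080, 2625 and 2968 bp in TPdh-/-. With means of 4587 ± 1590 bp (SD, n = 2) and 2558 ± 448 bp (SD, n = 3), the groups did not overlap (exact permutation p = 0.2), and without WT replicate 1 the difference fell from 2029 to 905 bp. By covered length, 3 of the 9 genes (Bcl2l1, Bak1 and Bad) were higher in both WT libraries without overlap, against 14.6% of coding genes, and 0 were higher in TPdh-/-, against 0.0319%. These shares also count coding genes with no peak in any library, which could not separate. None of the 3 kept this separation with lists of equal length, where the exact permutation p was 0.4 for Bcl2l1, 0.4 for Bak1 and 0.6 for Bad, and the difference at Bcl2l1 was 523 bp.

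**Figure D2:**
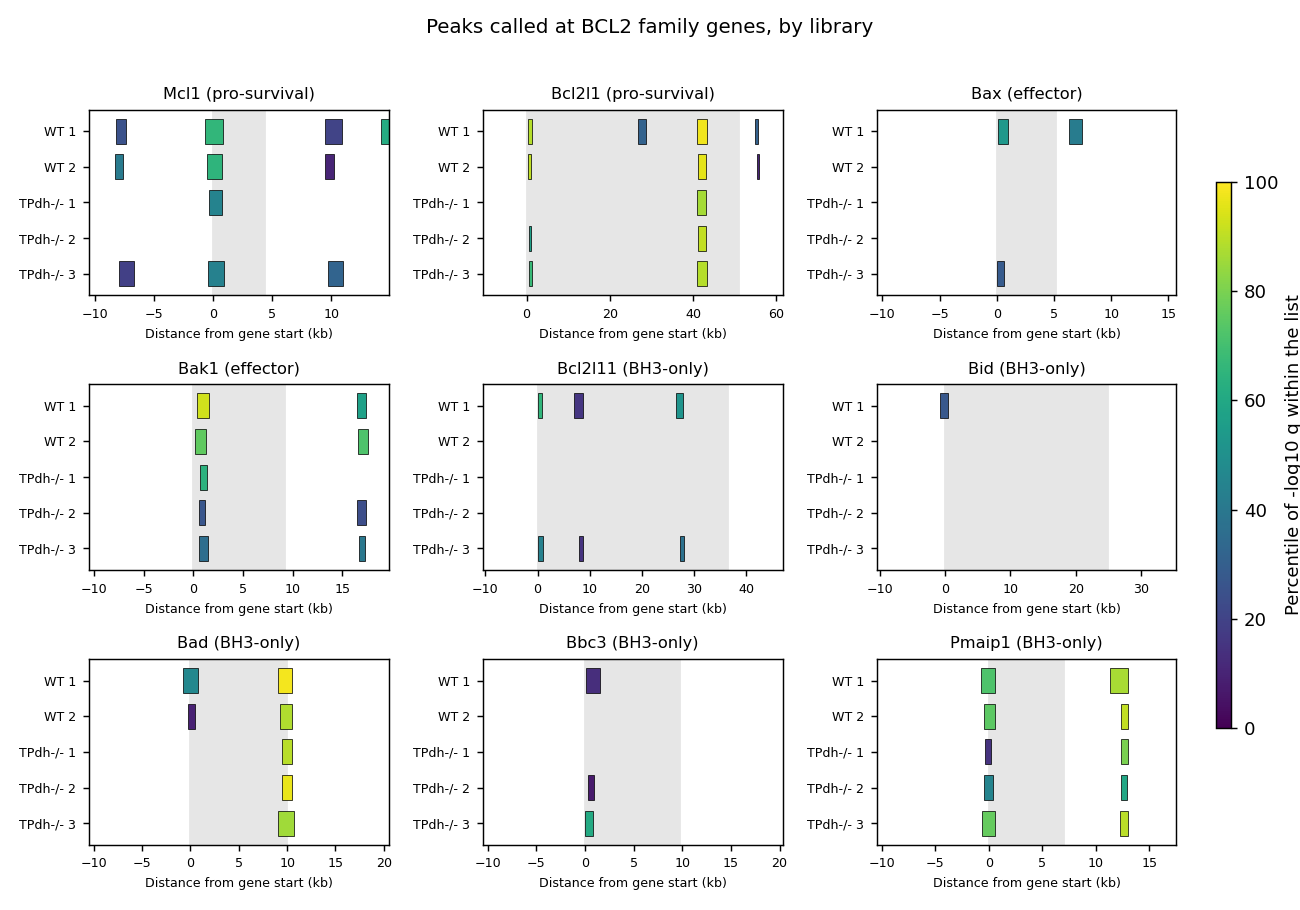
Peaks at each gene (bars, drawn to width) by distance from the gene start in kb, along the direction of transcription, with 1 row per library, the gene body in grey and the percentile of −log10 q within the list as colour. The Bcl2l1 intron, the 3′ end of Bad and both sites of Pmaip1 carry a bar in all 5 rows, as does the first intron of Bak1, whereas Bcl2l11 has bars in WT 1 and TPdh-/- 3 alone.

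Of the effectors, Bak1 (ENSMUSG00000057789.14, chromosome 17, 27019810 to 27029009, minus strand) had a peak in every library and Bax in 2. BAK1 sits in the outer mitochondrial membrane at rest. The Bak1 gene lies within the annotated span of Ggnbp1, so a peak there cannot be given to one of the pair by position alone. The peak 0.9 kb after the start, in the first intron of Bak1, was counted among the promoter sites. An annotated start of Bak1 lies 0 to 233 bp from it. The fold at this peak was 3.67 and 3.33 in WT and 3.17, 2.65 and 2.67 in TPdh-/-. Every WT library was above every TPdh-/- library, with means of 3.5 ± 0.244 (SD, n = 2) and 2.83 ± 0.294 (SD, n = 3), a difference of 0.671 (exact permutation p = 0.2). The same order held for the percentile, at 92.6 and 75.5 in WT and 63.9, 26.9 and 35.8 in TPdh-/-. It also held for the −log10 q, at 11.1 and 5.0 against 3.19, 1.95 and 2.67, and for the width, at 1194 and 1096 bp against 760, 609 and 901 bp. Of the 4 genes with a peak in all 5 libraries, Bak1 was the one in which the fold, the percentile and the covered length each lay higher in both WT libraries. By the fold of the strongest peak, that is 1 of 4 genes, against 15.5% of the 3761 coding genes with such a peak, and 0 of the 4 were higher in TPdh-/-, against 8.4%. The difference in the percentile of its strongest peak was 40.4 and lay between 31.8 and 55.6 under the alternatives tried. The groups overlapped, however, with lists of equal length (38.2, exact permutation p = 0.4) and with peaks of −log10 q 5 or more (40.5, exact permutation p = 0.8). A site 17 kb after the start, 5452 to 5715 bp from the start of Ggnbp1, was called in 4 libraries, at the 56.8 and 72.0 percentiles in WT and 23.8 and 40.2 in TPdh-/- replicates 2 and 3. In TPdh-/- replicate 3 this was the stronger of both sites. Peaks covered 2051 and 2096 bp of the window in WT and 760, 1495 and 1512 bp in TPdh-/- (exact permutation p = 0.2).

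Bax (ENSMUSG00000003873.11, chromosome 7, 45461697 to 45466898, minus strand), whose product moves from the cytosol to mitochondria, had a promoter peak in WT replicate 1 and TPdh-/- replicate 3. The peak lay at the 53.5 percentile with a fold of 2.98 in the first and at the 28.5 percentile with a fold of 2.58 in the second. WT replicate 2 and TPdh-/- replicates 1 and 2 had no peak, so the groups overlapped, with means of 26.7 ± 37.8 (SD, n = 2) and 9.50 ± 16.5 (SD, n = 3) and an exact permutation p of 0.8. A further peak in WT replicate 1, 6.9 kb after the Bax start, covered the start of the ferritin gene Ftl1.

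Among the BH3-only genes, Bad and Pmaip1 were marked in all 5 libraries, Bbc3 in 3, Bcl2l11 in 2 and Bid in 1. Bad (ENSMUSG00000024959.14, chromosome 19, 6941861 to 6951899, plus strand) encodes a protein that growth factor signalling keeps inactive by phosphorylation. Its strongest peak lay at its 3′ end, 9.9 kb after the gene start, and reached the 3′ end of the neighbouring gene Plcb3, which runs toward it and is named here for its place. The site counted as a promoter only through a short annotated transcript of Bad that starts 174 to 594 bp away. The fold there was 3.69 and 3.25 in WT and 3.42, 3.65 and 3.04 in TPdh-/-, the highest of the 62 peaks being that of WT replicate 1. The libraries of both groups were interleaved, with means of 3.47 ± 0.309 (SD, n = 2) and 3.37 ± 0.306 (SD, n = 3) and an exact permutation p of 0.8. Percentiles were 98.4 and 88.0 in WT and 89.2, 96.7 and 85.9 in TPdh-/-, also with overlap (exact permutation p = 0.6). In TPdh-/- replicate 2 this peak was number 181 of 5419. The main promoter of Bad, which lies close to the start of the antisense gene Gpr137, was called in both WT libraries, at the 46.7 and 9.27 percentiles, and in no TPdh-/- library. Because of that site peaks covered 3009 and 1893 bp of the Bad window in WT, against 1017, 1063 and 1622 bp for the TPdh-/- libraries (exact permutation p = 0.2). With lists of equal length the difference in covered length fell from 1217 to 130 bp.

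Pmaip1 (ENSMUSG00000024521.8, chromosome 18, 66458533 to 66465565, plus strand) encodes NOXA, which binds MCL1 and speeds its turnover. It had a promoter peak and a peak 12.2 kb after its start in every library. The downstream peak was the stronger in all 5, at the 86.9 and 90.7 percentiles in WT and 80.0, 59.7 and 89.8 in TPdh-/-. TPdh-/- replicate 3 fell between the WT libraries, and the means were 88.8 ± 2.71 (SD, n = 2) and 76.5 ± 15.3 (SD, n = 3), with an exact permutation p of 0.4. The fold of that peak was 2.61 and 2.91 in WT and 2.87, 2.56 and 2.91 in TPdh-/- (exact permutation p = 1). At the promoter the percentiles were 72.2 and 74.7 in WT and 14.8, 45.2 and 76.3 in TPdh-/-. Here TPdh-/- replicate 3 was the highest of all and TPdh-/- replicate 1 the lowest, and the exact permutation p was 0.6. No coding gene other than Pmaip1 had a start nearer to the downstream site, which was 11241 to 12297 bp away.

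Bcl2l11 (ENSMUSG00000027381.16, chromosome 2, 128126038 to 128162547, plus strand) encodes BIM, the main BH3-only protein in the loss of T cells after an immune response. It had peaks at 3 sites, all of them in WT replicate 1 and in TPdh-/- replicate 3 and none in the other 3 libraries. At the promoter the fold was 2.40 in WT replicate 1 and 2.42 in TPdh-/- replicate 3, with percentiles of 65.5 and 43.5. In the intron 27.3 kb after the start the fold was 2.27 and 2.24, and in the intron 7.9 kb after the start it was 2.24 and 2.30. The groups overlapped in the percentile of the strongest peak (exact permutation p = 0.8).

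Bbc3 (ENSMUSG00000002083.13, chromosome 7, 16308393 to 16318205, plus strand) encodes PUMA, a target of p53, and was the one gene whose mean percentile was higher in TPdh-/-. Its promoter peak lay at the 13.1 percentile in WT replicate 1, at 6.69 in TPdh-/- replicate 2 and at 60.6 in TPdh-/- replicate 3, with a fold of 1.77, 2.08 and 2.37. The difference rested on TPdh-/- replicate 3. The means were 6.55 ± 9.27 (SD, n = 2) and 22.4 ± 33.2 (SD, n = 3), with an exact permutation p of 1, and without that library WT was higher by 3.21. Bid (ENSMUSG00000004446.12, chromosome 6, 120891930 to 120916853, minus strand), which links death receptors to mitochondria once caspase-8 cleaves it, had 1 peak, at its promoter in WT replicate 1, at the 27.2 percentile with a fold of 2.26.

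At the 5 sites with a peak in every library, a fold can be compared without missing values, as the plot of these sites shows. The fold was higher in both WT libraries at 1 site (Bak1) and overlapped at the other 4. The percentile and the −log10 q were each higher in WT at 2 sites (the Bcl2l1 intron and Bak1) and overlapped at 3. None of these measures was higher in all TPdh-/- libraries at any of the 5 sites. The median fold of all peaks of a list was 2.40 and 2.54 in WT and 2.65, 2.58 and 2.48 in TPdh-/-, so that Bak1 stood above the list's median in every library and the Bcl2l1 intron stood below it in every library.

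**Figure D3:**
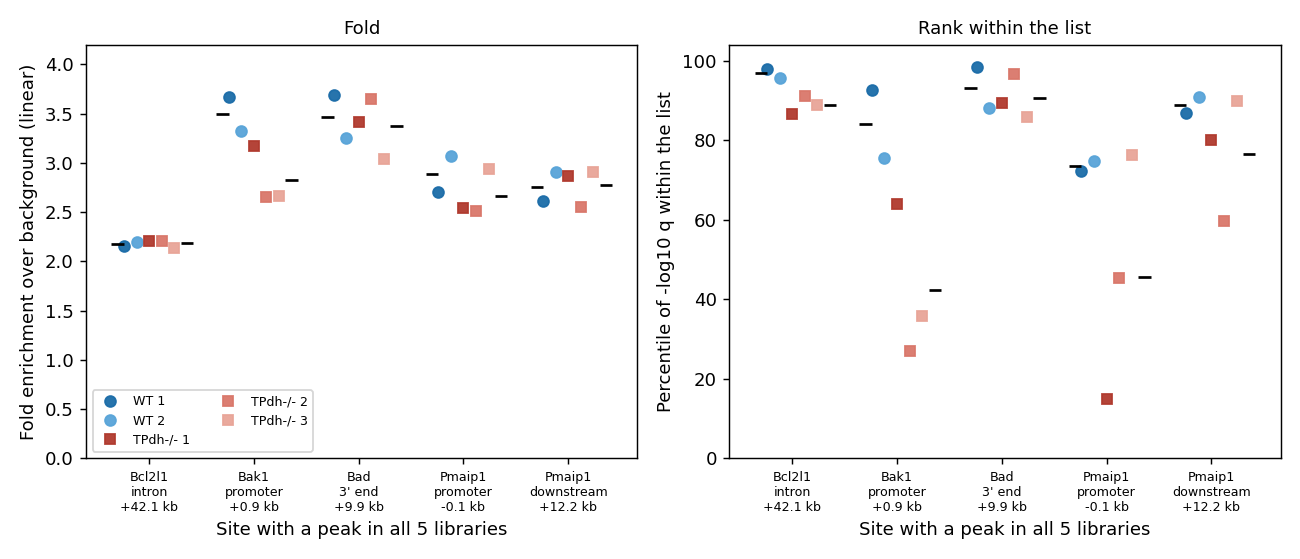
Fold over background (left, linear axis from 0) and percentile of −log10 q within the list (right) at the 5 sites with a peak in all 5 libraries, with circles for WT, squares for TPdh-/- and black bars for the group means. The folds at the Bcl2l1 intron lie between 2.13 and 2.21 in every library, and at Bak1 both WT folds lie above the TPdh-/- folds.

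The pro-survival genes had the higher median in every library, but the highest single gene was a pro-death gene in 4 of the 5. The median percentile of the 2 pro-survival genes was 81.9 and 80.4 in WT and 65.7, 45.5 and 66.2 in TPdh-/-. For the 7 pro-death genes it was 65.5 and 0 in WT and 0, 6.69 and 43.5 in TPdh-/-, since 7, 3, 3, 4 and 6 of them had a peak in the same order of libraries. The difference was 16.3 and 80.4 in WT and 65.7, 38.8 and 22.6 in TPdh-/-, and the groups overlapped. The widest and the narrowest difference were both in WT libraries. Coding genes as a whole, with 0 for those without a peak, had a median of 20.3 in WT replicate 1 and of 0 in each of the other 4 libraries. Coding genes with a peak had a median of 70.7 and 64.7 in WT and 60.6, 62.4 and 64.7 in TPdh-/-. Family genes with a peak had 65.8 and 88.0 in WT and 80.0, 59.7 and 52.1 in TPdh-/-. They were thus lower in WT replicate 1 and TPdh-/- replicates 2 and 3, and higher in WT replicate 2 and TPdh-/- replicate 1. The strongest gene was Bad in WT replicate 1 and in TPdh-/- replicates 1 and 2, Bcl2l1 in WT replicate 2 and Pmaip1 in TPdh-/- replicate 3. The median of 2 genes is their midpoint, and Bcl2l1 alone was above the pro-death median in all 5 libraries. Mcl1 was below it in TPdh-/- replicate 2, with no peak against 6.69, and in TPdh-/- replicate 3, at 43.4965 against 43.5496. With 2 genes on one side, these medians describe the genes named and carry no test.

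**Figure D4:**
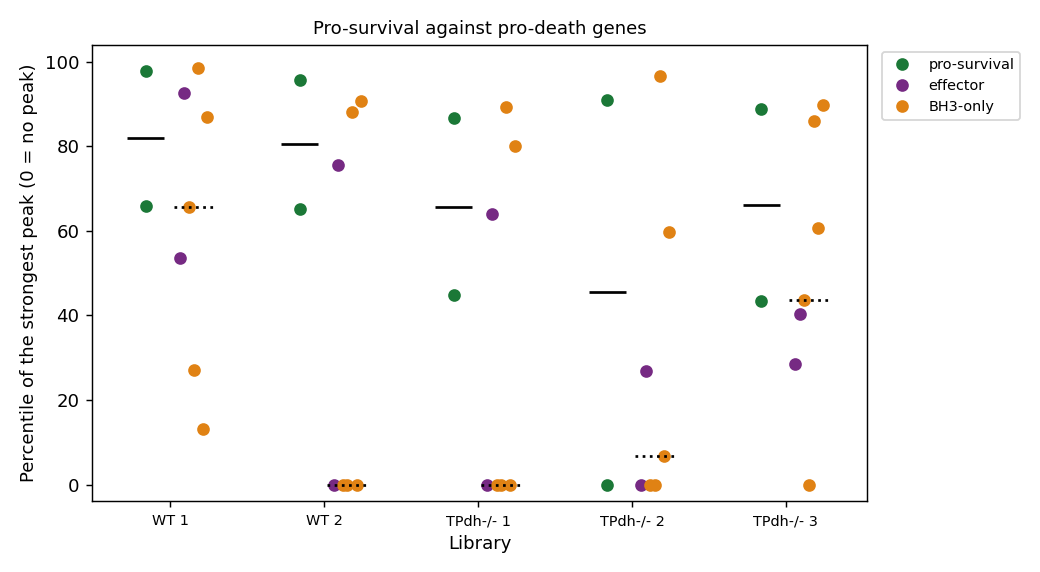
Percentile of the strongest peak (0 where no peak was called) of the pro-survival genes (green) and of the effectors (purple) and BH3-only genes (orange) in each library, with solid bars for the pro-survival median and dotted bars for the pro-death median. The solid bar lies above the dotted bar in all 5 libraries, and the highest point is a BH3-only gene in every library but WT 2.

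The rest of the cell death pathway was described from 4 lists by the same measure. Of all coding genes, 54% and 36.4% had a peak in WT and 23.2%, 24.7% and 39.2% in TPdh-/-. A peak in all 5 libraries was found for 17.1% of coding genes, and none in any library for 43.9%. Of 13 other BCL2 family genes, 6 and 4 had a peak in WT and 3, 3 and 4 in TPdh-/-, 7 had none in any library and 2 had one in all 5. Bcl2l13, a mitochondrial family member, was among the strongest of all at the 99.7 and 98.0 percentiles in WT and 95.8, 96.4 and 99.6 in TPdh-/-. Bmf, a BH3-only gene, lay at 80.1 and 56.8 in WT and 44.5, 58.5 and 50.9 in TPdh-/-. Of the 13, 1 was higher in both WT libraries without overlap and 0 in TPdh-/-, against 13.7% and 0.196% of coding genes. Both shares, here and below, count the coding genes with no peak in any library, which could not separate. Of 15 genes of the apoptosome, caspases and their inhibitors, 14 and 11 had a peak in WT and 11, 6 and 12 in TPdh-/-, and 6 had one in all 5, led by Vdac2, Htra2 and Birc2 with mean percentiles of 87.1, 83.8 and 79.5. In that list 4 genes were higher in both WT libraries without overlap and 0 in TPdh-/-, where 13.7% and 0.196% of coding genes were. Of 8 death receptor genes, 7 and 5 had a peak in WT and 3, 3 and 5 in TPdh-/-, and 3 had one in all 5 (Casp8, Cflar and Fadd, with mean percentiles of 82.9, 74.2 and 47.1). Here 2 genes were higher in WT without overlap and 1 was higher in TPdh-/-, against the same 13.7% and 0.196%. That gene, Cflar, encodes the inhibitor of caspase-8 and lay at 70.8 and 63.6 in WT and 83.1, 80.8 and 72.8 in TPdh-/-. Each of 4 genes that set the turnover of MCL1 protein had a peak in all 5 libraries, against 17.1% of coding genes. They were led by Trim17, Usp9x and Huwe1 with mean percentiles of 80.5, 79.3 and 44.6. Of the 4, 0 separated the groups in either direction, against the same 13.7% and 0.196%. No gene of the 4 lists had a peak in both WT libraries and in no TPdh-/- library, against 2.92% of coding genes.

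Each gene with a peak in all 5 libraries was set beside the 40 genes of these lists by the mean absolute difference in percentile over the 5 libraries. The nearest to Pmaip1 was Birc3, an inhibitor of apoptosis, at 2.84 percentile points. Vdac2, a channel of the outer mitochondrial membrane, was nearest to Bcl2l1 at 5.37, and Bcl2l13 was nearest to Bad at 6.37. Bak1 had no close neighbour, its nearest being Huwe1 at 17.5.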

How the data were processed

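Peak lists of 5 ChIPseq libraries, WT (n = 2) and TPdh-/- (n = 3), were used. The authors aligned reads to GRCm38/mm10 with BWA-mem (0.7.17), kept uniquely mapping reads outside blacklisted regions with Samtools (1.15.1) and called broad peaks with MACS2 (2.2.6). An input control is not given in the sources used here. The deposited lists give each peak's fold, a linear ratio over the MACS2 background, and the authors' −log10 p and −log10 q. From there, peaks overlapping a gene body or its 10 kb flanks by at least 1 bp were taken with the GENCODE M21 annotation, and peaks of different libraries that overlapped were joined into sites. The percentile is the mid-rank of −log10 q within a list. Python 3.11.15, numpy 2.4.6, pandas 2.3.3 and pysam 0.24.0 were used, and figures were drawn with matplotlib 3.10.9. Groups were compared by exact permutation, two-sided p being double the smaller one-sided p, in 22 tests of the genes without adjustment. The same test was also run, unadjusted, on the fold, percentile, −log10 q and width at the 5 shared sites and on recomputed values. The code was checked on simulated lists. All 9 genes are named, and of each pathway list the 3 with the highest mean percentile among those with a peak in all 5 libraries, any called in both WT lists and none of TPdh-/-, the list gene nearest to each such member, and neighbours whose start is nearest to a peak. Plcb3, Gpr137 and Cflar were named after their values or places were seen. Genes, lists and motifs were chosen with earlier results of these data known. Lists shared at most 1 identical interval. Leave-one-out, a replicate block, other windows, −log10 q minimums and lists of equal length were tried. The authors' DiffBind analysis was not repeated.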

Additional observations from a re-analysis of the deposited data

How the results depend on the processing

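Of the recomputed values, 26 reversed in sign, 3 were labelled as moved and 289 as the same. The last label also took in values of 0, as for the percentile of Bax with lists of equal length. It further took in values that could not change, as for pro-survival minus pro-death in WT without a TPdh-/- library. The count of 289 is therefore not a measure of stability. The replicate block and leaving out TPdh-/- replicate 3 gave equal values and were both counted. Some values labelled the same kept their sign but changed in size. The percentile difference of Bcl2l1 was 8.0 and became 48.3 with peaks nearest to its own start and 51.6 with peaks of −log10 q 5 or more. That of Mcl1 was 36.0 and became 3.65 with lists of equal length. With 2 libraries against 3 no test could pass, so this says nothing of significance. The difference in the number of genes with a peak (WT minus TPdh-/-) was 1 and ranged from −1 to 3 when each library was left out, reversing without WT replicate 1. It was 0.167 with lists of equal length, 2.5 with peaks of −log10 q 5 or more and 2 with the replicate block. Pro-survival minus pro-death percentiles were 48.4 in WT (16.3 to 80.4 on leaving out a library) and 42.4 in TPdh-/- (30.7 to 52.3), the latter 18.6 with peaks nearest to the gene's own start or within 1000 bp of a start, and 18.5 at the −log10 q minimum of 5. The number of the 9 genes with a peak in all 5 libraries was 4, and 1 with that minimum. On leaving out a library, percentile differences ranged from −9.50 to 44.0 for Bax, −14.5 to 51.0 for Bcl2l11, −2.57 to 7.79 for Bad and −27.1 to 3.21 for Bbc3, and that of Pmaip1 was −1.64 with lists of equal length. Fold differences ranged from −0.0341 to 0.0119 for Bcl2l1, −0.120 to 0.317 for Bad and −0.167 to 0.126 for Pmaip1, which was 0.216 within 3 kb, in the gene body alone or within 1000 bp of a start. Covered length differences ranged from −194 to 1857 bp for Bax, −791 to 3109 bp for Bcl2l11 and −471 to 918 bp for Bbc3, which was −279 bp at a −log10 q minimum of 2 and with lists of equal length. The cause of these shifts was not tested, except that leaving out WT replicate 1 removes the one WT list with a peak at Bax, Bcl2l11, Bid and Bbc3. A replicate block gave 3.21 for the percentile of Bbc3, −0.0656 for the fold of Bad and 0.0459 for that of Pmaip1, which reversed them. These values are the same as without TPdh-/- replicate 3, so the block is not a separate check. The labels do not say whether same-numbered libraries were prepared together. Deviations of same-numbered libraries correlated at −0.0260 and 0.0142 over 12312 genes, which cannot show whether they were paired. Depth is unknown, so a missing peak is one not called at that depth.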
